A study of Mus musculus with 2 samples.

Results

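The mitochondrial genome of the mouse carries 37 genes in the annotation used by the submitters, 13 for proteins, 2 for ribosomal RNAs and 22 for transfer RNAs. Members were the annotated genes whose name begins with mt-, all of which lie on chrM, and every transcript model placed on chrM outside the annotation. They make up 37 of 55536 annotated genes, and 19 of them were among the 16400 annotated genes with a read in either library. The models outside the annotation numbered 9 in one library and 13 in the other. Whole adrenal glands of female B6CASTF1/J mice aged 25 day, an F1 hybrid between C57BL/6J and the wild-derived strain CAST/EiJ, were the source of total RNA for 2 long-read libraries, called replicate 1 and replicate 2. Both belong to 1 group, with no treatment named in the labels, of mice supplied by The Jackson Laboratory, so no genotype, treatment or time was compared. The library descriptions of both name the same animal, whereas the tissue descriptions name different ones, and the p-values given here take single reads as units, so they cover counting error and not the spread between animals.

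Mitochondrial DNA is transcribed from both strands as long precursors that span many genes. Transfer RNAs lie between most of the protein and ribosomal RNA genes, and the enzymes that cut them out also set the ends of the neighbouring messenger RNAs, which then receive a poly(A) tail. All 13 proteins are core subunits of respiratory complexes I, III, IV and V, whose other subunits come from nuclear genes. In the adrenal cortex the same inner membrane holds the enzyme that starts steroid synthesis from cholesterol.

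Each library gave full-length reads assigned to transcript models, 426150 in replicate 1 and 770041 in replicate 2, of which 397176 and 712032 lay on annotated mouse genes. CPM is a gene's reads per 1000000 of the latter, so that 1 read is worth 2.52 CPM in replicate 1 and 1.40 CPM in replicate 2. Where a gene had 0 reads the limit is 3 reads, which is 7.55 CPM in replicate 1 and 4.21 CPM in replicate 2. Intervals and this limit cover counting error only. Adrenal cortex and medulla markers were present, 5 of 5 of each list in both libraries. The 5 brown fat markers summed to 522 and 734 reads, or 1314 CPM in replicate 1 and 1031 CPM in replicate 2. Among them Ucp1 had 209 and 199 reads (526 and 279 CPM), and Dio2 and Ppargc1a were at 0 in replicate 2. The 5 liver markers summed to 93 reads in replicate 1 and 1 read in replicate 2, where all but Alb were at 0. The 5 red blood cell markers summed to 1221 and 2622 reads, none at 0, and the 3 kidney markers were at 0 in both. In a whole gland, fewer cells of a type and less RNA per cell cannot be told apart, and the part of other tissues in the levels below was not tested.

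The annotated sequences of 3 coding genes end in an incomplete stop codon. Of the 13 coding sequences, 10 have a length divisible by 3, while mt-Co3, mt-Nd4 and mt-Cytb leave 1 base over, a T, so the DNA does not spell a complete stop codon and the poly(A) tail is known to complete it. Transfer RNA genes follow directly: mt-Tg and mt-Tt start at the next base after mt-Co3 and mt-Cytb, and mt-Th starts 1 base further on after mt-Nd4. The last 24 bases of these genes are shown beside those of mt-Co1 and mt-Nd1, whose annotated sequences end in complete stops. The stop of mt-Nd1 overlaps mt-Ti, which starts at chrM:3706 on the same strand. In the same way mt-Nd2, which ends at chrM:4951, overlaps mt-Tw, which starts at chrM:4950. Sequences are from the GENCODE M21 transcripts, build mm10, plus strand, and capitals mark the last codon or the base left of it.
mt-Co3, chrM:9367-9390: tctccatttattgatgaggatctT
mt-Nd4, chrM:11521-11544: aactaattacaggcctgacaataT
mt-Cytb, chrM:15265-15288: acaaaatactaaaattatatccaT
mt-Co1, chrM:6849-6872: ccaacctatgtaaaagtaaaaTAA
mt-Nd1, chrM:3684-3707: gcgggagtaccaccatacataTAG

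Mitochondrially encoded genes took a small share of both libraries. They had 440 reads in replicate 1, or 0.111% of the reads on annotated genes (Wilson 95% interval 0.101 to 0.122), and 740 reads in replicate 2, or 0.104% (0.0967 to 0.112). The mean was 0.107% ± 0.00485 (SD, n = 2), and Fisher's exact test (two-sided) gave p = 0.288 between the libraries. With reads on near-identical chromosome 1 copies added, described further on, the shares were 0.136% and 0.120%, a difference that was not tested. Reads fell on 15 genes in replicate 1 and 17 in replicate 2, with 13 in both. The 18 genes without a read in either library were mt-Nd4l and 17 of the 22 transfer RNA genes: mt-Tf, mt-Tv, mt-Tl1, mt-Tq, mt-Tw, mt-Ta, mt-Tn, mt-Tc, mt-Ty, mt-Td, mt-Tk, mt-Tg, mt-Tr, mt-Th, mt-Ts2, mt-Tl2 and mt-Te.

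Between the libraries, 2.15% of the 9271 genes with at least 10 reads over both were called by a two-sided exact binomial test with Benjamini-Hochberg adjustment over all of them at 0.05. Of the 11 mitochondrially encoded genes that reached 10 reads, 0 were called and 0 had an unadjusted p under 0.05, beside 11.5% of all genes tested, and TMM and DESeq2 scaling also gave 0 calls. The lowest p was that of mt-Co1 (exact binomial p = 0.171, adjusted p = 0.669). Their log2 ratios of replicate 2 over replicate 1 ran from -0.47 for mt-Atp6 to 0.49 for mt-Co3, with a median of 0.02 beside 0.03 over all genes tested.

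**Figure D1:**
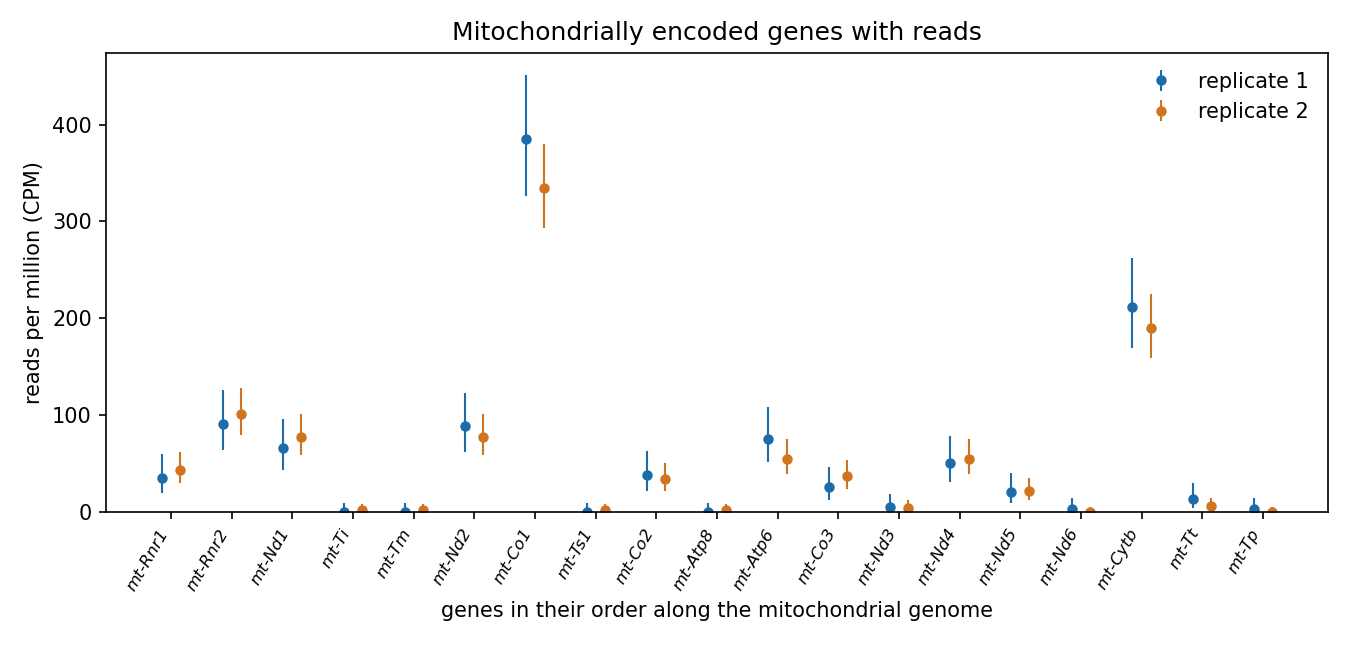
CPM of the 19 mitochondrially encoded genes with reads, in genome order, for replicate 1 (blue) and replicate 2 (orange), with bars for the exact Poisson 95% interval of each count. Genes mt-Co1 and mt-Cytb stand above the rest in both libraries, and the bars of the libraries overlap for every gene shown.

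The genes of complex IV, cytochrome c oxidase, which passes electrons to oxygen, held the most mitochondrial reads, 178 in replicate 1 and 288 in replicate 2. That is 40.5% and 38.9% of the mitochondrial total, a mean of 39.7% ± 1.09 (SD, n = 2). Most were of mt-Co1, the catalytic subunit, with 153 reads (385 CPM) and 238 reads (334 CPM). Only 4.88% of the genes tested had at least as many reads as mt-Co1 over both libraries. The other complex IV genes were far lower: mt-Co2, which carries the first copper centre that receives electrons, had 15 and 24 reads. For mt-Co3, a structural core subunit, there were 10 and 26 reads. On the per-length scale mt-Co1 lay at 233 ± 23.3 CPM per kilobase, against 52.2 ± 4.2 for mt-Co2 and 39.3 ± 10.2 for mt-Co3 (SD, n = 2). Near-identical copies of mt-Co1, mt-Co2, mt-Co3 and mt-Atp6 on chromosome 1, described further on, also had reads. With these added the levels were 259 ± 37.1, 119 ± 29.2 and 97.2 ± 3.26 CPM per kilobase for mt-Co1, mt-Co2 and mt-Co3. Complex IV then held 43.5% ± 2.33 of the reads on genes and copies (SD, n = 2).

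Complex III has a single mitochondrial gene, mt-Cytb, which encodes cytochrome b. It had 84 reads (211 CPM) in replicate 1 and 135 reads (190 CPM) in replicate 2, or 18.7% ± 0.60 of mitochondrial reads (SD, n = 2). By reads mt-Cytb lay below mt-Co1 and above mt-Rnr2, and the exact Poisson 95% intervals of both neighbours were apart from its own in both libraries. Per kilobase it came second at 175 ± 13.5 CPM, where its interval overlapped that of mt-Co1 in both libraries; with the reads of the copies added it came below mt-Atp6 as well.

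Complex I, which takes electrons from NADH, has 7 mitochondrial genes, all membrane subunits of the proton-pumping arm. Together they had 92 and 167 reads, 21.7% ± 1.17 of the total (SD, n = 2). The subunits mt-Nd2 and mt-Nd1 led, with 35 and 55 reads of mt-Nd2 and 26 and 55 of mt-Nd1, so that replicate 2 gave them the same count. For mt-Nd4 there were 20 and 39 reads, and for mt-Nd5, the longest mitochondrial gene here at 1824 bases, 8 and 15. The short gene mt-Nd3 had 2 and 3 reads. The only protein gene on the minus strand, mt-Nd6, had 1 read in replicate 1 and 0 in replicate 2. The gene mt-Nd4l had 0 in both; it overlaps mt-Nd4, the pair is known to share 1 messenger RNA, and how a read that spans both was assigned is not given in the sources used here.

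Complex V, the ATP synthase, has mt-Atp6, part of the proton channel, and mt-Atp8, a small subunit beside it. There were 30 and 39 reads of mt-Atp6, and 0 and 1 of mt-Atp8. These genes overlap too and are known to share a messenger RNA, so their separate counts are uncertain. The complex took 6.11% ± 1.00 of mitochondrial reads (SD, n = 2), or 10.5% ± 1.31 of the reads on genes and copies when the copies are added.

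The ribosomal RNA genes had 50 and 103 reads, 12.6% ± 1.81 of the total (SD, n = 2). The large ribosomal RNA, mt-Rnr2, had 36 and 72 reads and the small one, mt-Rnr1, had 14 and 31. Per kilobase they lay at 60.6 ± 4.68 and 41.2 ± 6.14 CPM (SD, n = 2), within the range of the messenger RNAs. The priming of the RNA is not given, so these levels do not compare the amounts of ribosomal and messenger RNA in the gland. Of the 6 classes (4 complexes, ribosomal RNA and transfer RNA), none passed Fisher's exact test of its share of mitochondrial reads between the libraries; the lowest p was 0.211 and the lowest adjusted p 0.747.

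Transfer RNA genes had 6 and 7 reads, and of the 5 genes concerned only mt-Tt, for threonine, had reads in both libraries, 5 and 4. A single read each fell on mt-Tp (proline) in replicate 1 and on mt-Ti (isoleucine), mt-Tm (methionine) and mt-Ts1 (a serine gene) in replicate 2. The sequences of mt-Tt and mt-Tp are shown because these adjoining genes face each other on opposite strands and lie directly after mt-Cytb, so that mt-Tt starts at the base after its single T.
mt-Tt, chrM:15289-15355, plus strand: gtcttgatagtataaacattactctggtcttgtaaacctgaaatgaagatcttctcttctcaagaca
mt-Tp, chrM:15356-15422, minus strand: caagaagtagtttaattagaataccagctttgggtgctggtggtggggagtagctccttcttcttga

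Ordered per kilobase, the 11 tested genes ran mt-Co1, mt-Cytb, mt-Atp6, mt-Nd2, mt-Nd1, mt-Rnr2, mt-Co2, mt-Rnr1, mt-Co3, mt-Nd4 and mt-Nd5, from 233 to 11.3 CPM per kilobase. This order rests on how reads were divided between genes and their chromosome 1 copies. With the copies added, mt-Atp6 lay at 198 ± 44.0 in place of 95.7 ± 21.6 CPM per kilobase (SD, n = 2), next to mt-Co1, and mt-Co2 and mt-Co3 came after mt-Cytb and before mt-Nd2. Among neighbours in the order without copies, mt-Nd4 and mt-Nd5 had intervals apart in both libraries, and mt-Cytb and mt-Atp6 in replicate 2 alone. All other neighbours overlapped within each library. Longer genes had more reads: over the 15 protein and ribosomal RNA genes, Spearman's rho between reads and gene length was 0.69 in replicate 1 and 0.71 in replicate 2, a description over genes that share a library and a precursor. The genes kept nearly the same order in both libraries (rho 0.97 over the same 15 genes).

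All mitochondrial gene reads, 440 and 740, were assigned to annotated transcripts of 1 exon. No read fell in a class that extends or truncates an annotated transcript, which allows up to 0.682% and 0.405%. For nuclear genes the annotated share was 77.1% and 77.0%. Most of their other reads were in classes that a gene of 1 exon hardly allows, so that difference is given without a test. Nuclear genes of 1 exon had 97.9% and 98.1%, lower than the mitochondrial genes by 2.00 points on average (Fisher's exact p = 2.06e-04 and 1.93e-06 over reads within each library). Reads clustered in genes, with 153 and 238 on mt-Co1 alone, so these p-values do not cover the spread between genes. An annotated model carries the annotated ends whatever the ends of its reads, so neither truncated reads nor read-through between neighbouring genes on the sense strand can be seen in these counts.

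A stretch of chromosome 1 carries 7 near-identical copies of mitochondrial genes, which can receive reads of the mitochondrial RNA. Here near-identical means at least 99% identity over at least 95% of the copy in a BLAST search of the transcripts. The copies lie at chr1:24611535-24616197 of mm10, all on the minus strand and all annotated as unprocessed pseudogenes. For the 4 copies that hold nearly the whole gene and had reads, at least 40% of the reads of gene and copy together were on the copy in each library. Copy Gm10925, identical to mt-Atp6 over 678 bases, had 32 and 42 reads, or 51.6% and 51.9% of the pair. Identical to mt-Co2, Gm28661 had 23 and 24 reads (60.5% and 50%), and Gm28437, identical to mt-Co3, had 21 and 27 (67.7% and 50.9%). The mt-Nd3 copy Gm28438 had 3 and 2 reads against 2 and 3.

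Copies of part of a gene took less. Gm29216 matches the last 483 bases of mt-Co1 and had 22 and 18 reads, 12.6% and 7.03% of the pair. For Gm28439, which matches the first 876 bases of mt-Nd4, there were 0 and 1 reads. The mt-Nd4l copy Gm10222 had 0 in both, like the gene itself. Summed, the copies had 101 and 114 reads, 18.7% (Wilson 95% interval 15.6 to 22.2) and 13.3% (11.2 to 15.8) of the reads on mitochondrial genes and copies. Fisher's exact test of the summed share between the libraries gave p = 0.00779, which did not pass after adjustment over the 7 comparisons of this kind (adjusted p = 0.055). In the 6 single pairs the lowest p was 0.0627 and the lowest adjusted p 0.220. The counts of mt-Co2, mt-Atp6, mt-Co3 and mt-Nd3 are therefore uncertain by the reads of their copies, and with the copies added the mitochondrial share was 0.128% ± 0.0115 (SD, n = 2). Of 10 further annotated copies with at least 90% identity over at least 100 bases, 1 had reads, 5 and 2.

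**Figure D2:**
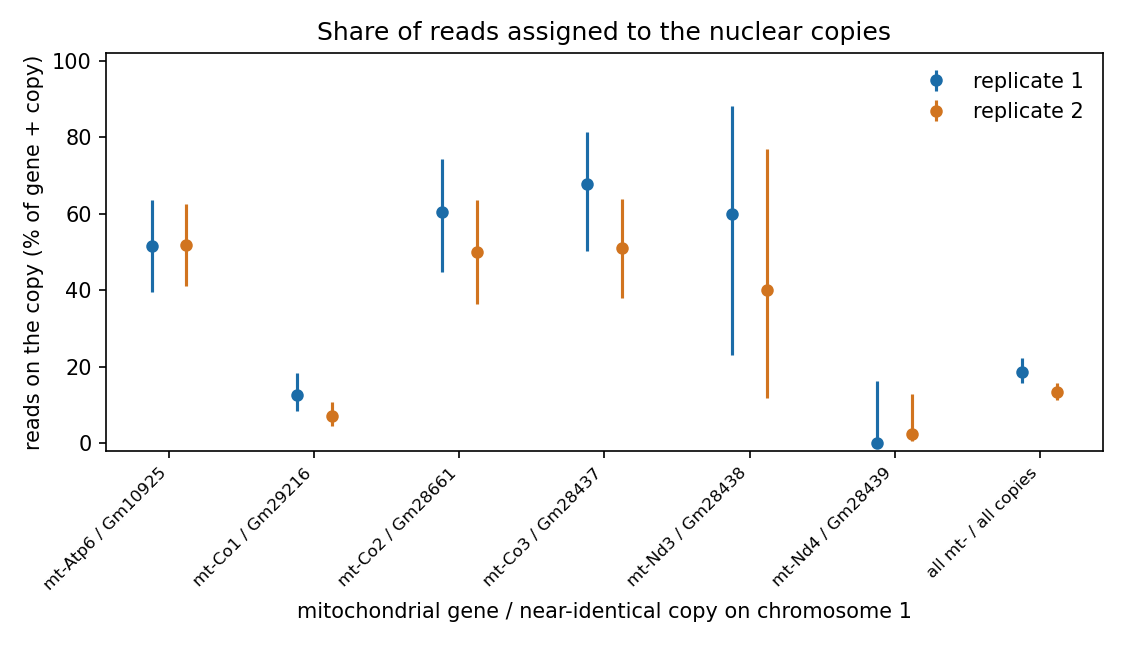
Percent of the reads of each mitochondrial gene and its copy that were assigned to the chromosome 1 copy, for replicate 1 (blue) and replicate 2 (orange), with Wilson 95% intervals, and the same for all genes and copies summed. The near-complete copies of mt-Atp6, mt-Co2 and mt-Co3 lie at 50% or above, and the partial copies of mt-Co1 and mt-Nd4 at 12.6% or below.

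Single bases separate the copies of mt-Nd3 and mt-Co1 from their genes, and all the other aligned bases match. The substitutions, counted from the 5′ end of the mitochondrial gene with its base first, are T3C for mt-Nd3 and A1066T for mt-Co1. The mt-Co1 alignment starts at base 1063 and holds 483 of the 492 bases of Gm29216, so A1066T lies at its edge. Whether it is a single substitution or part of the unaligned end was not tested. The stretches that hold the differing bases are shown on the gene's sense strand, with the differing base in capitals.
mt-Nd3, chrM:9459-9485, plus strand: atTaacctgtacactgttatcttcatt
Gm28438, chr1:24613093-24613119, minus strand: atCaacctgtacactgttatcttcatt
mt-Co1, chrM:6390-6417, plus strand: ggaAttgttttatccaactcatcccttg
Gm29216, chr1:24616161-24616188, minus strand: ggaTttgttttatccaactcatcccttg

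Outside the annotation, chrM held 9 models with 21 reads in replicate 1 and 13 models with 33 reads in replicate 2. That is 4.56% and 4.27% of all chrM reads, a mean of 4.41% ± 0.20 (SD, n = 2; Fisher's exact p = 0.886). All had 1 exon, and 4 and 6 of them rested on 1 read. The deposited class was Antisense for 7 models (10 reads) and 12 models (27 reads), and Intergenic for 2 models (11 reads) and 1 model (6 reads). There was no chrM model of the Genomic class.

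The plus strand, which carries 28 of the 37 genes, held 95.9% of chrM reads in replicate 1 and 97.4% in replicate 2, a mean of 96.6% ± 1.08 (SD, n = 2; Fisher's exact p = 0.177 between them). The 9 minus-strand genes had only 2 reads and 1 read. Most minus-strand reads lay instead in models outside the annotation, 17 in replicate 1 and 19 in replicate 2, against 4 and 14 such reads on the plus strand.

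All these models are of the Antisense and Intergenic classes, so cover of several genes on their own strand could not be looked for, and none covered at least 50% of even 1 such gene. Models opposite to several genes did occur. The minus-strand model chrM:7696-10167, with 2 reads in replicate 1, runs from the end of mt-Co2 to the start of mt-Nd4 and lies opposite 8 genes, and chrM:10173-13552, with 2 reads in the same library, lies opposite 5. In replicate 2, chrM:6938-10173, with 2 reads, lies opposite 10 genes, and chrM:14139-15355, with 3 reads, opposite mt-Cytb and mt-Tt. The longest model had 3380 bases in replicate 1 and 3236 in replicate 2. In all, models opposite 2 or more genes had 4 of 21 and 14 of 33 reads; leaving out transfer RNA genes, these were 4 and 2 reads.

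Ribosomal RNA also had an antisense model: chrM:1094-2675 on the minus strand, with 4 reads in replicate 2, has exactly the ends of mt-Rnr2. In replicate 1 the antisense reads of mt-Rnr2 were 1 each in 2 shorter models with the same upper end.

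Within the gene-bearing part, the plus-strand models of more than 1 read lay opposite minus-strand transfer RNA genes. The model chrM:5018-5159, with 6 reads in replicate 2, spans mt-Ta and mt-Tn, and chrM:5192-5326, with 2 reads in the same library, spans mt-Tc and mt-Ty. The model chrM:14070-14145 lies opposite mt-Te, had 2 reads in replicate 1 and 4 in replicate 2, and fills the gap from the 5′ end of mt-Nd6 to the first base of mt-Cytb. It was 1 of 2 models found in both libraries within 10 bases at both ends; the other, chrM:6372-6870 in replicate 1 and chrM:6373-6870 in replicate 2, lies on the minus strand within the 3′ part of mt-Co1 with 1 read in each. Sequences of the plus strand at the transfer RNA genes with the most such reads are shown, as they would be read in these models.
opposite mt-Ta, chrM:5018-5086: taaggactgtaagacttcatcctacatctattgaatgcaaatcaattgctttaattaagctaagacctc
opposite mt-Tn, chrM:5089-5159: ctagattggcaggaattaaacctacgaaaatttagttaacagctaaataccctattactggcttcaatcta
opposite mt-Te, chrM:14071-14139: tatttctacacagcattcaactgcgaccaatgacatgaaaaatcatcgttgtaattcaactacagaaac

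Beyond the last gene, mt-Tp, lies the non-coding control region, where transcription starts. Models there had 11 reads in replicate 1 and 8 in replicate 2, of which 9 and 7 were on the minus strand. The most read of all was chrM:15422-16103, with 9 reads in replicate 1, whose 3′ end is the 5′ end of mt-Tp. In replicate 2 the same stretch was divided at position 15730 between chrM:15422-15730, with 1 read, and chrM:15730-16103, with 6. Position 16103 was also the start of a plus-strand model of 2 reads in replicate 1, chrM:16103-16294. A plus-strand model of replicate 2 at position 15730, named for its size after the values were seen, was 1 base long and had 1 read.

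**Figure D3:**
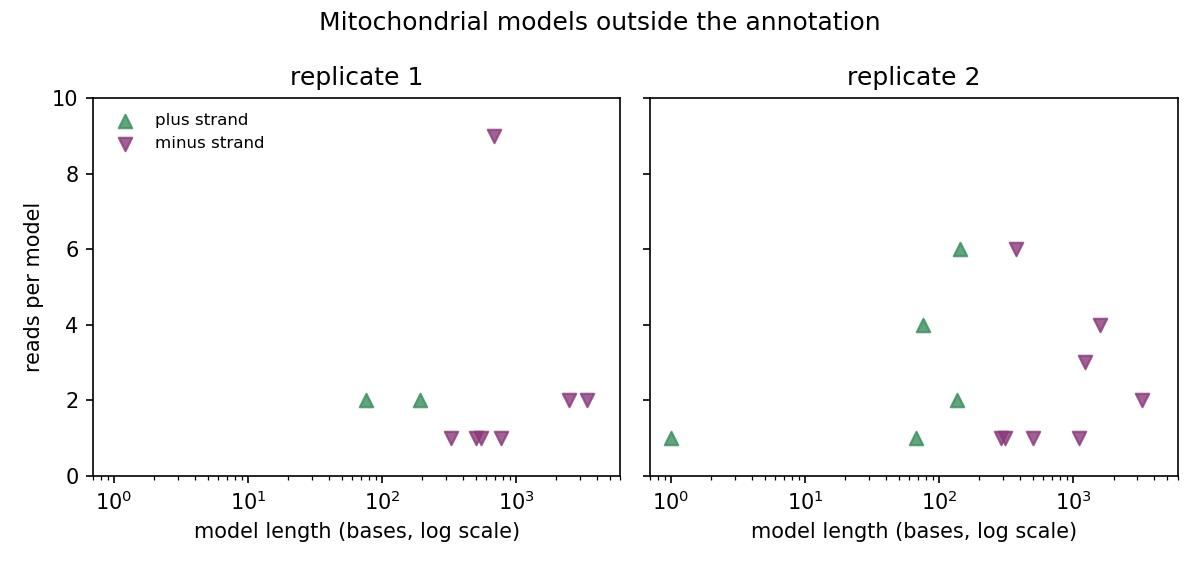
Reads per model (vertical axis) against model length in bases (horizontal, log scale) for the 9 and 13 chrM models outside the annotation, with upward triangles for the plus strand and downward triangles for the minus strand. The longest models, up to 3380 bases, are on the minus strand with 2 reads each, and plus-strand models are 192 bases or shorter.

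Many ends of these models coincided with a boundary of a gene on either strand, to the base: 11 of 18 ends in replicate 1 and 18 of 26 in replicate 2, with both ends exact in 3 and 8 models. The ends are those written in the deposited annotation. The bases just after the 3′ end of a model are given because priming on runs of A in the RNA is possible. On the minus strand 6 of 14 models with known sequence there, holding 15 of their 30 reads, had at least 10 A in the next 20 bases, against 4.46% of all 15061 such windows. On the plus strand 2 of 2 had 12 A, against 12.4% of 15060 windows at 10 or more. Most of the 15 reads lay in chrM:15422-16103 (9 reads) and chrM:15422-15730 (1 read), which share the same window with exactly 10 A. These models include those found in both libraries and overlapping ones, so the windows are not independent. Whether single reads end where the models do, and the part of such priming in their reads, was not tested.

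The nuclear genes of the same complexes exceeded the mitochondrial ones in reads. The priming of the RNA and the treatment of reads that match several places are not given. Their part in this gap was not tested. Nuclear subunits were grouped by their symbols, so Ndufa4, with 537 and 1007 reads, counts with complex I although its product is known to belong to complex IV. Moving it would lower the complex IV share and raise that of complex I, by amounts not computed. Of the reads on subunits of complex IV so grouped, 4.45% and 3.70% were mitochondrially encoded, a mean of 4.08% ± 0.53 (SD, n = 2), although mt-Co1 is among them. The share was 3.16% ± 0.29 for complex III, 1.66% ± 0.12 for complex I and 0.624% ± 0.116 for complex V (SD, n = 2). With the copies added it was 5.27% ± 1.03 for complex IV and 1.28% ± 0.243 for complex V (SD, n = 2). Between the libraries the lowest p of Fisher's exact test over the 4 shares was 0.0516 (adjusted p = 0.206), for complex IV.

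Per kilobase of annotated transcript, taking the median transcript length for nuclear genes, the median mitochondrial gene lay below the median nuclear gene in each complex. In complex I the median mitochondrial gene lay at 14.5 and 12.1 CPM per kilobase and the median of 38 nuclear genes at 450 and 466. Of those, 37 lay above the highest mitochondrial member in both libraries. For complex III, mt-Cytb was at 185 and 166 CPM per kilobase, below all 9 nuclear genes, whose median was 1042 and 1012. In complex IV 12 of 18 nuclear genes lay above mt-Co1 in each library, and in complex V 14 and 15 of 17 lay above mt-Atp6. By CPM without division by length, mt-Cytb lay above Uqcrh in replicate 1 (211 against 181) and below it in replicate 2 (190 against 229). Likewise mt-Co1 (385 and 334) lay above Cox7a1 (237 and 288), and above Cox5a (355) and Cox7b (287) in replicate 1 alone. In contrast, Atp5g1 lay below mt-Atp6 per kilobase in replicate 1 (105 against 111) and above it by CPM (282 against 75.5). The highest nuclear gene of each complex was Ndufa4 at 2955 ± 94.0 CPM per kilobase, counted with complex I by its name although its product is known to belong to complex IV, Uqcrq at 3407 ± 212, Cox4i1 at 3598 ± 100.2 and Atp5b at 3343 ± 442 (SD, n = 2). Of the nuclear subunits, Ndufa7, Ndufs3, Cox7c and Cox8a were higher in replicate 2 and Atp5b in replicate 1, by 1.21 to 1.51 times (exact binomial test, adjusted p from 1.83e-05 to 0.0290). That is 5 of 76 tested, or 6.58% beside 2.15% of all genes. The subunits were not set against genes of like read number, so this share is not read as a trait of the subunits.

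**Figure D4:**
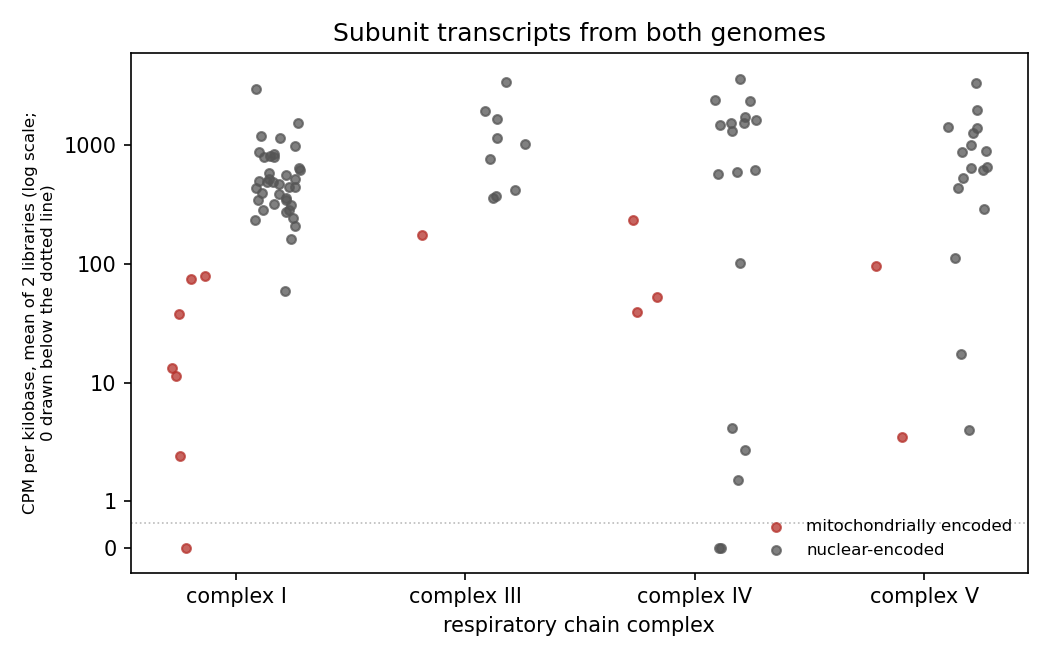
CPM per kilobase, as the mean of both libraries on a log axis with 0 drawn below the dotted line, of mitochondrially encoded (red) and nuclear-encoded (grey) subunit genes of 4 complexes; each point is 1 gene. The single complex III gene, mt-Cytb at 175, lies below all 9 nuclear genes, and mt-Co1 at 233 lies below 12 of the 18 of complex IV.

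The nuclear genes that copy, transcribe and process mitochondrial RNA had a median level of 31.6 and 32.2 CPM per kilobase. Of 40 symbols listed, Prorp was not in the annotation under that symbol. The other 39 were in it and had reads, and 34 could be tested. None was called in either direction (exact binomial test; 2 had an unadjusted p under 0.05, beside 11.5% of all genes tested), and their median log2 ratio was 0.01 beside 0.03 over all genes tested. The most read were Ssbp1, the mitochondrial single-stranded DNA-binding protein, with 89 and 183 reads, and Fastk, a member of the FASTK family of mitochondrial RNA regulators, with 85 and 138. They were followed by the RNA exonuclease gene Rexo2 with 62 and 138 and by Hsd17b10, a subunit of the mitochondrial ribonuclease P that cuts transfer RNAs at their 5′ ends, with 51 and 130. Slirp, which acts with Lrpprc to stabilise mitochondrial messenger RNAs, had 44 and 126. In all, the list took 821 and 1572 reads, 0.207% and 0.221% of reads on annotated genes.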

How the data were processed

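The members and gene lists were chosen with earlier results of these data known. Counts of reads per transcript model, made by the authors, were used as deposited, with the class of each model and its coordinates in the authors' annotation (mm10, GENCODE M21 per the submitters' processing notes and file headers). The aligner, the counting version, the priming of the RNA and the treatment of reads that match several places are not given in the sources used here. Spike-in reads (8817 and 14315) were left out, and models were summed per annotated gene. The other deposited columns hold names, lengths, positions and classes. No condition was compared: 9271 genes with at least 10 reads over both libraries were tested between them by a two-sided exact binomial test against the library totals (scipy 1.17.1), adjusted by Benjamini-Hochberg, with log2 ratios at a pseudocount of 0.5. Shares have Wilson 95% intervals, and single counts exact Poisson ones. The test was tried on simulated data first. Near-identical copies were sought with BLAST 2.17.0 among all annotated transcripts; 6 came from the gene list, and Gm10222 was added by its identity. A-rich windows come from 15365 bases joined from the annotated genes. All 37 genes were accounted for; models outside the annotation were named if they covered several genes or had among the most reads, and list genes by the 5 highest mean levels and by calls. Alternative scalings used edgeR 4.0.16 (TMM) and DESeq2 1.42.0. Other alternatives changed the transcripts, denominator, filter, pseudocount, coverage and end tolerance. Depth was 397176 and 712032 reads on annotated genes, so 1 read is 2.52 and 1.40 CPM.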

Additional observations from a re-analysis of the deposited data

How the results depend on the processing

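With annotated transcripts only, the mean share of mitochondrial reads was 0.139%, since the denominator then loses the nuclear reads of other classes; over all mouse reads it was 0.102%, and with the chromosome 1 copies added, an alternative chosen after seeing the data, 0.128%. Leaving out either library gave 0.104% to 0.111%. None of the 11 tested mitochondrial genes was called under any of the 7 alternatives, nor any of the 19 tested without the filter; with the copies added mt-Co1 reached an unadjusted exact binomial p of 0.0394 (adjusted p 0.403). The log2 ratio of mt-Nd5, 0.02, was -0.024 under TMM scaling, -0.021 under DESeq2 scaling and -0.012 with a pseudocount of 1, and that of mt-Co3, 0.49, was -0.078 with its copy added. The other 73 of 77 single-gene values kept their sign. With the copies added, the complex IV share of the reads on genes and copies was 43.5% ± 2.33, against 39.7% without them. In the same setting complex I held 18.7% ± 1.66, complex III 15.7% ± 0.20 and ribosomal RNA 10.7% ± 1.99 (SD, n = 2). Without the copies these 3 shares were 21.7%, 18.7% and 12.6%. The class difference, 22.98 points, was 2.00 against nuclear genes of 1 exon, and what sets it was not tested. Same-strand cover and same-strand ends of the models were 0 in every setting, which their Antisense and Intergenic classes fix, so these settings test nothing. Counting genes on either strand, chosen after seeing the data, gave 30.7% of model reads covering several genes, and 72.1% and 60.2% of reads with the 3′ and 5′ ends near a gene end. Leaving out a library gave plus-strand shares of 95.9% to 97.4%. No paired analysis was possible because there is 1 group. Genes under 10 reads were not tested between the libraries, and whether depth, gene length or read assignment set the 18 counts of 0 was not tested.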
